A study of Caenorhabditis elegans with 6 samples.

Results

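The genes described are 76 members of the lysosome, V-ATPase and autophagy set of Caenorhabditis elegans, among 46748 gene rows of the deposited table. They were taken by symbol: every gene whose name begins with vha-, asp-, cpr-, atg-, lgg- or epg-, together with cpl-1, cpz-1, lmp-1, lmp-2, cup-5, bec-1, unc-51, sqst-1 and unc-32. They fall into 9 genes of the V1 sector and 11 of the V0 sector and accessory proteins of the V-ATPase, 19 aspartic protease genes, 8 cysteine protease genes, 3 lysosomal membrane protein genes, 10 genes of autophagy initiation and nucleation, 11 of the ATG8 and ATG12 conjugation systems and 5 other autophagy genes. A gene named otherwise in the table was not taken. The rule used symbols and no measured value, but it was set with earlier results of these data known.

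Lysosomes break down proteins, lipids and nucleic acids with hydrolases that work at acid pH. The V-ATPase is a proton pump with a cytosolic V1 sector that splits ATP and a membrane V0 sector that carries protons, and it acidifies the lysosome. In autophagy, a membrane sac forms under the UNC-51 kinase and the BEC-1 lipid kinase complex, takes up ATG8 proteins through a conjugation system, encloses its cargo and fuses with the lysosome. In worms with reduced insulin signalling, autophagy genes are known to be needed for the long life of the animals.

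Whole worms of strain CF512, which is sterile at high temperature, were raised from the egg on RNAi bacteria at 25 °C for 48 h and collected on day 1 of adulthood. There were 2 libraries each of worms on RNAi toward daf-2, which encodes the insulin/IGF-1 receptor, of worms on RNAi toward cav-1, which encodes a caveolin, and of worms on bacteria with the empty vector. Every repeat held 1 library of each kind, and both treatments are set against the same empty vector libraries. RNAi lowers a transcript without removing the gene, and each library is a pool of whole animals.

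Libraries held between 25474328 and 32886440 counts. daf-2 stood at 26.4 and 30.6 CPM under daf-2 RNAi, 57.9 and 214 CPM under cav-1 RNAi, and 42.6 and 188 CPM with the empty vector. Repeat 1 of empty vector and cav-1 RNAi lay above the daf-2 RNAi libraries for that gene, but nearer to them than repeat 2 did. The fall of daf-2 under daf-2 RNAi had a log2 fold change of -1.63 (SE 0.39, limma adjusted p = 0.03). It did not pass without daf-2 RNAi repeat 2 (log2 fold change -0.53), empty vector repeat 2 (-1.09) or cav-1 RNAi repeat 1 (-1.59). cav-1 stood at 42.7 and 21.2 CPM under daf-2 RNAi, 6.13 and 1.84 CPM under cav-1 RNAi, and 178 and 184 CPM with the empty vector, and fell by 5.34 on the log2 scale under cav-1 RNAi (SE 0.33, limma adjusted p = 9.43e-05, and 0.0585 without cav-1 RNAi repeat 1) and by 2.55 under daf-2 RNAi (SE 0.33, limma adjusted p = 0.00191). The repeats stood apart: with treatment as a term, 25.2% of 14378 tested genes were higher in repeat 2 and 32.4% lower. Of 71 tested members, 32 were higher in repeat 2 and 18 lower. Levels below are CPM, counts scaled to a common library total and by TMM factors, each pair gives repeat 1 and then repeat 2, and fold changes are differences of log2(CPM + 1) with the repeat as a block, which understates the change of genes at a few CPM.

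Of the 76 members, 71 had enough counts to be tested. The other 5 were asp-7, asp-11, asp-15, asp-16 and asp-19, with between 0 and 21 counts in any library. Together the 76 members took 1.97% and 2.02% of all counts in the daf-2 RNAi libraries, 1.5% and 1.76% in the cav-1 RNAi libraries, and 1.5% and 1.57% in the empty vector libraries. The proteases made up the largest of these shares, with 1.24% and 1.34% in the daf-2 RNAi libraries, 0.761% and 1.09% in the cav-1 RNAi libraries, and 0.774% and 0.996% with the empty vector.

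Per kb of transcript, lgg-1, the worm GABARAP-like ATG8 protein, and asp-4, a cathepsin D-like protease, were the most abundant members. lgg-1 had 2529.9 and 933 CPM per kb under daf-2 RNAi, 1659 and 647 CPM per kb under cav-1 RNAi, and 2485 and 697 CPM per kb with the empty vector. It was high in all 3 libraries of repeat 1 and low in all 3 of repeat 2, with no such separation by treatment. asp-4 had 2467 and 1076 CPM per kb under daf-2 RNAi, 1142 and 598 CPM per kb under cav-1 RNAi, and 1117 and 694 CPM per kb with the empty vector. Among the cysteine proteases the highest was cpr-6, a cathepsin B homologue, with 1149 and 1060.0 CPM per kb under daf-2 RNAi, 486 and 689 CPM per kb under cav-1 RNAi, and 549 and 875 CPM per kb with the empty vector. The highest of the V1 sector was vha-9, the subunit F, with 421 and 284 CPM per kb under daf-2 RNAi, 487 and 270.1 CPM per kb under cav-1 RNAi, and 415 and 266 CPM per kb with the empty vector, and the highest of the V0 sector was vha-2, a proteolipid c subunit, with 319 and 388 CPM per kb under daf-2 RNAi, 299 and 438 CPM per kb under cav-1 RNAi, and 326 and 402 CPM per kb with the empty vector. vha-2 shares 219 exon bases (22.7% of its exon length) with R10E11.6 on the same strand, so its counts may include reads of that gene.

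**Figure D1:**
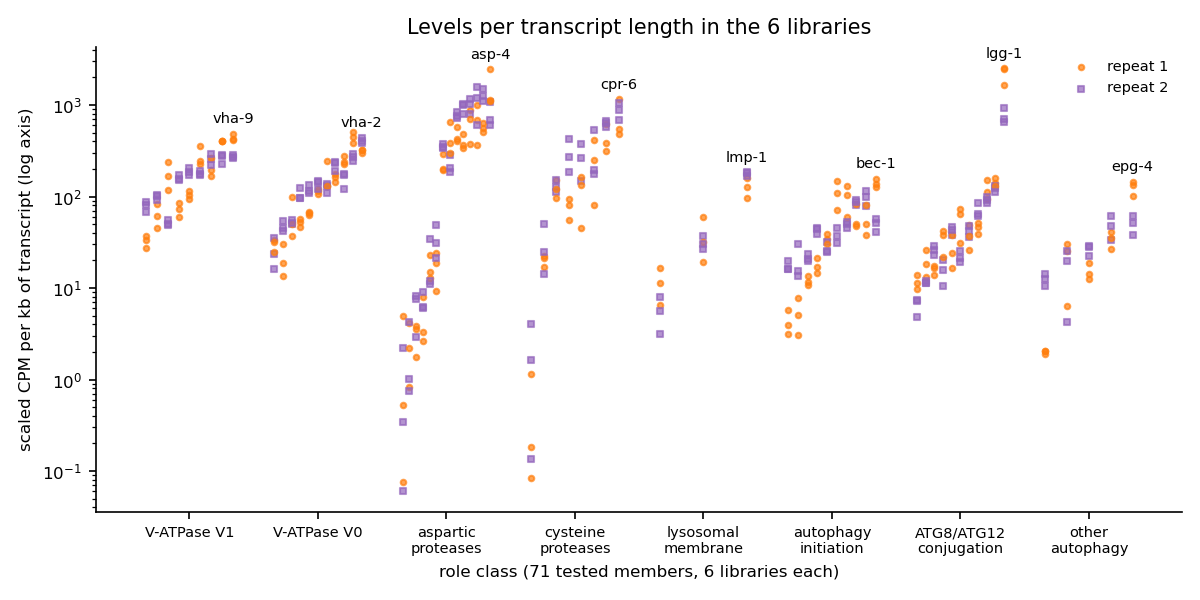
Scaled CPM per kb of transcript, on a log axis, for the 71 tested members by role class, with circles for the 3 libraries of repeat 1 and squares for those of repeat 2; the highest member of each class is named. lgg-1 lies apart from the other conjugation genes and between 647 and 2530 CPM per kb, with its repeat 1 values above its repeat 2 values.

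Under daf-2 RNAi the members that changed were mainly aspartic proteases. asp-18, asp-8, asp-10, asp-9 and asp-4 rose, while asp-17, the cathepsin B homologue cpr-4 and the autophagy gene epg-2 fell. In all, 8 of 71 tested members (11.3%) were called by limma at an adjusted p under 0.05, against 7.44% of all tested genes. The 5 rises compare with 4.31% of all genes called higher and the 3 falls with 3.13% called lower. The members had a median log2 fold change of 0.14, against -0.05 for all tested genes, and over the settings and left-out libraries tried the members' median ran from 0.06 to 0.33. The authors' deposited table called 5 members higher and 4 lower, with 9.55% of all its tested genes called.

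Of the 14 tested aspartic protease genes, 5 rose, 1 fell and 8 did not pass, with a median log2 fold change of 0.48 that ran from 0.29 without the filter on low counts to 0.89 without daf-2 RNAi repeat 2. asp-18 (WBGene00013973, chromosome V, 18730174 to 18731679, minus strand, WBcel235, 2 exons) had 5.78 and 2.60 CPM under daf-2 RNAi, 0.0889 and 0.0721 CPM under cav-1 RNAi, and 0.625 and 0.405 CPM with the empty vector. Both daf-2 RNAi libraries were above every other library, and both cav-1 RNAi libraries were below every other, on 3 and 2 counts. Set against empty vector, daf-2 RNAi gave a log2 fold change of 1.71 (SE 0.23, limma adjusted p = 0.00254), and a ratio of summed counts of 8.52, with a counting interval of 5.72 to 13.2 that covers counting error only. asp-8 (WBGene00019105, chromosome V, 3024549 to 3027931, plus strand, 4 exons) had 29.2 and 59.3 CPM under daf-2 RNAi, 22.9 and 37.9 CPM under cav-1 RNAi, and 11.4 and 26 CPM with the empty vector. Both daf-2 RNAi libraries were above both empty vector libraries, and the cav-1 RNAi libraries overlapped with both of those groups. It rose by a log2 fold change of 1.22 (SE 0.25, limma adjusted p = 0.0157).

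asp-10 (WBGene00007605, chromosome V, 12742041 to 12744171, plus strand, 7 exons), also named hrg-7 and known as a secreted protease-like protein in signalling between intestine and neurons over heme, had 945 and 2169 CPM under daf-2 RNAi, 1384 and 1639 CPM under cav-1 RNAi, and 503 and 839 CPM with the empty vector. All 4 libraries of both treatments were above both empty vector libraries. On daf-2 RNAi it rose by a log2 fold change of 1.14 (SE 0.26, limma adjusted p = 0.0242). asp-9 (WBGene00015700, chromosome IV, 6185889 to 6189324, plus strand, 7 exons) had 5.33 and 5.51 CPM under daf-2 RNAi, 1.07 and 0.973 CPM under cav-1 RNAi, and 2.89 and 1.33 CPM with the empty vector, and the 3 groups did not overlap. It rose on daf-2 RNAi, with a log2 fold change of 1.09 (SE 0.26, limma adjusted p = 0.0289). asp-4 (WBGene00000217, chromosome X, 13218985 to 13221462, minus strand, 6 exons), which acts in necrotic cell death in worms, had 3602 and 1571 CPM under daf-2 RNAi, 1667 and 874 CPM under cav-1 RNAi, and 1630.4 and 1013 CPM with the empty vector. Its groups overlapped, repeat 1 was higher in each group, and within each repeat the daf-2 RNAi library was the highest. The log2 fold change was 0.89 (SE 0.23, limma adjusted p = 0.0406).

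asp-17 (WBGene00012683, chromosome V, 19035723 to 19037322, minus strand, 2 exons) had 2.153 and 3.51 CPM under daf-2 RNAi, 4.35 and 10.0 CPM under cav-1 RNAi, and 4.69 and 9.28 CPM with the empty vector. Both daf-2 RNAi libraries were below the other 4. Its log2 fold change was -1.02 (SE 0.27, limma adjusted p = 0.0435). Just outside the threshold lay asp-14, named after its values were seen, with 17.9 and 13.4 CPM under daf-2 RNAi, 15.6 and 14.2 CPM under cav-1 RNAi, and 27.5 and 41.4 CPM with the empty vector. All 4 treated libraries were below both empty vector libraries, and daf-2 RNAi gave a log2 fold change of -1.08 (SE 0.29, limma adjusted p = 0.0506). It passed with limma voom (limma adjusted p = 0.0372), median-of-ratios scaling (0.0315), a pseudocount of 0.5 (0.044) and the stricter filter of 50 counts (0.0354), and the authors' deposited table called it lower (adjusted p = 0.0059). Many aspartic protease genes lie in tandem on chromosome V, which holds 26 of the 76 members. The neighbours asp-6, asp-12 and asp-5 had log2 fold changes of 0.15, 0.80 and 0.33 under daf-2 RNAi, none of them called. How the authors' counting treated reads shared by such related genes is not given in the sources used here, so single members of these clusters are uncertain.

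Of the 8 cysteine protease genes, none rose and 1 fell, with a median log2 fold change of 0.16 that ran from 0.03 with the stricter filter to 0.61 without daf-2 RNAi repeat 2. cpr-4 (WBGene00000784, chromosome V, 6614674 to 6615851, plus strand, 2 exons) had 50.9 and 168 CPM under daf-2 RNAi, 152 and 426 CPM under cav-1 RNAi, and 187 and 294 CPM with the empty vector. Both daf-2 RNAi libraries were below both empty vector libraries, they overlapped with cav-1 RNAi, and the log2 fold change was -1.33 (SE 0.27, limma adjusted p = 0.0153). cpr-2, a cathepsin B homologue, had a log2 fold change of 0.93 (SE 0.27, limma adjusted p = 0.0679), and was called higher with total-count scaling (limma adjusted p = 0.0432) and in 4 of the 6 fits that left out 1 library (0.000181 to 0.0412). cpl-1, the cathepsin L homologue, had 742 and 789.6 CPM under daf-2 RNAi, 372 and 677 CPM under cav-1 RNAi, and 462 and 749 CPM with the empty vector. Its empty vector libraries overlapped with both treatments, which did not overlap with each other. cpz-1, the cathepsin Z homologue, had 150.5 and 110.1 CPM under daf-2 RNAi, 95.7 and 125 CPM under cav-1 RNAi, and 119.6 and 151 CPM with the empty vector. Of the lysosomal membrane genes none was called: lmp-1, a LAMP-like protein, had 167 and 189.6 CPM under daf-2 RNAi, 99.9 and 176 CPM under cav-1 RNAi, and 132 and 192 CPM with the empty vector, and lmp-2 had 17.5 and 8.44 CPM under daf-2 RNAi, 6.93 and 5.88 CPM under cav-1 RNAi, and 12.2 and 3.31 CPM with the empty vector. cup-5, the worm mucolipin calcium channel, had 49.2 and 68.2 CPM under daf-2 RNAi, 152 and 96.8 CPM under cav-1 RNAi, and 82.8 and 79 CPM with the empty vector, with both daf-2 RNAi libraries lower than the other 4.

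The intestine holds most of the worm's lysosome-like gut granules, and its marker list (6 of 6 genes found, all tested) summed to 225 and 498 CPM under daf-2 RNAi, 283 and 489 CPM under cav-1 RNAi, and 298 and 409 CPM with the empty vector. Of these 6 markers 1 rose and 2 fell under daf-2 RNAi, against 4.31% of all tested genes called higher and 3.13% called lower. Their median log2 fold change was -0.52, against -0.05 for all tested genes. It was -0.50 for a list of germline markers, -0.05 for hypodermis, 0.33 for coelomocytes and 0.32 for the excretory canal. The part of intestinal tissue in the protease changes was not tested, and in whole worms fewer cells of a type and less RNA per cell cannot be told apart.

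**Figure D2:**
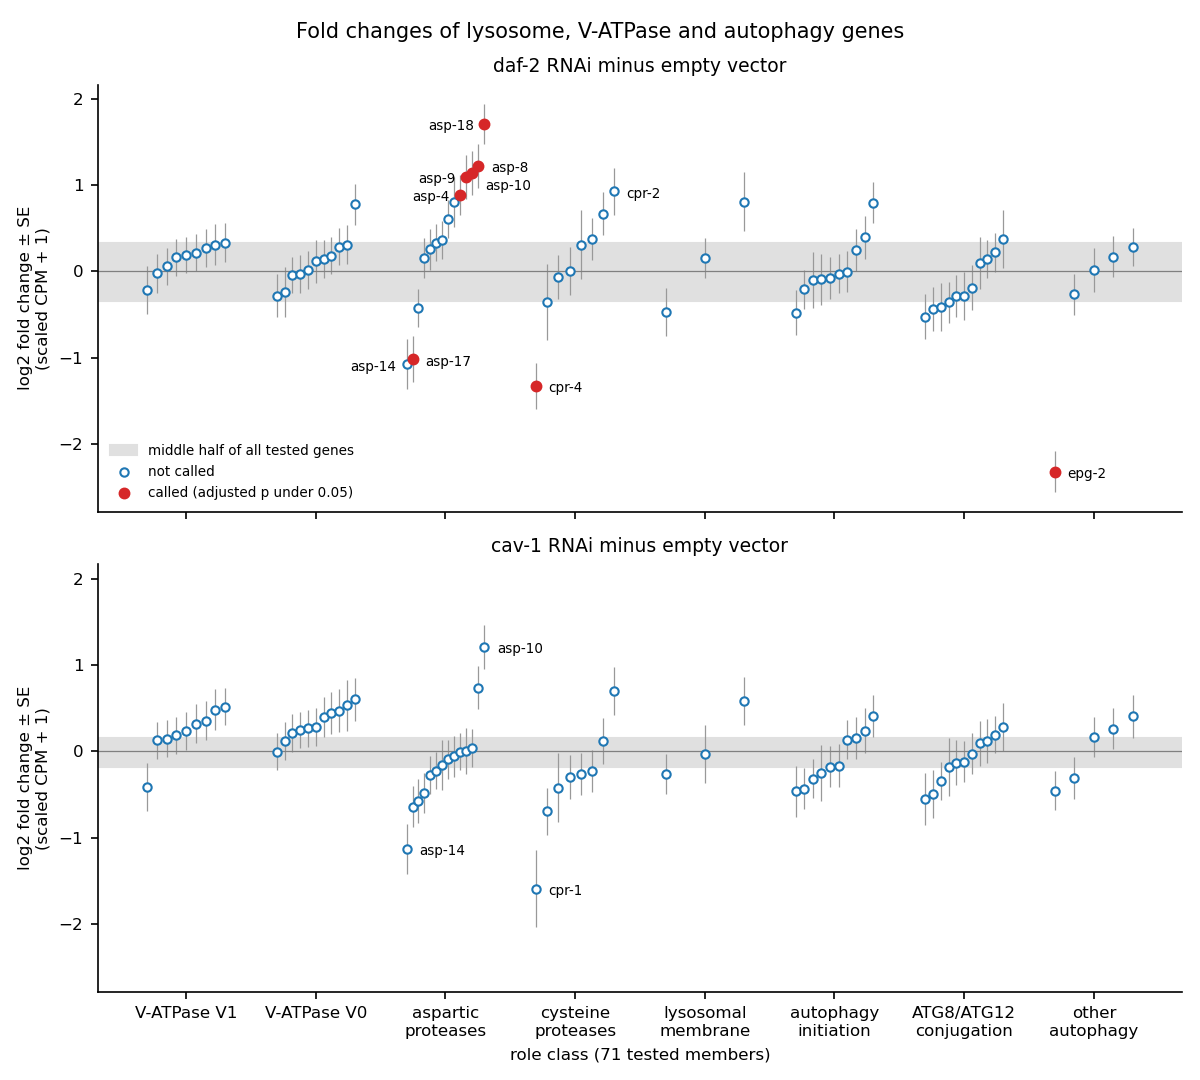
Log2 fold changes (log2 of scaled CPM + 1) with standard errors for the 71 tested members by role class, daf-2 RNAi minus empty vector above and cav-1 RNAi minus empty vector below; red points were called by limma and the band spans the middle of all tested genes, from the lower to the upper quartile. Called members lie among the proteases and at epg-2 under daf-2 RNAi, with none called under cav-1 RNAi.

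Among the 26 autophagy genes, 1 fell under daf-2 RNAi and none rose, and the median log2 fold change was -0.08, which ran from -0.16 with median-of-ratios scaling to 0.05 without empty vector repeat 1. epg-2 (WBGene00021468, chromosome I, 2300086 to 2302813, plus strand, 3 exons), a nematode scaffold protein that links protein aggregates to autophagosomes in embryos, had 14.4 and 9.77 CPM under daf-2 RNAi, 58.2 and 44.8 CPM under cav-1 RNAi, and 68.9 and 58.3 CPM with the empty vector. Both daf-2 RNAi libraries were far below the other 4. Its exons share 78 bases with tpxl-1 on the opposite strand. The log2 fold change was -2.32 (SE 0.24, limma adjusted p = 0.000666). A list of 5 early embryo genes, known from an earlier account of these data, summed to 12.3 and 2.36 CPM under daf-2 RNAi, 25.2 and 20.6 CPM under cav-1 RNAi, and 35.0 and 18.3 CPM with the empty vector. All 5 fell under daf-2 RNAi, against 3.13% of all tested genes called lower. Because the list was already known from these data, its fall is not an independent observation. The part of embryonic RNA in the epg-2 value was not tested.

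In autophagy initiation none of 10 genes was called. atg-2, which works in lipid transfer to the growing membrane, had 59.2 and 228 CPM under daf-2 RNAi, 22.9 and 103 CPM under cav-1 RNAi, and 38.1 and 115.3 CPM with the empty vector. Within each repeat it was highest under daf-2 RNAi, and its log2 fold change of 0.80 (SE 0.24) did not pass (limma adjusted p = 0.0703). unc-51, the worm ULK1 kinase, had 38.9 and 60.1 CPM under daf-2 RNAi, 31.6 and 57.8 CPM under cav-1 RNAi, and 34.1 and 68.7 CPM with the empty vector. bec-1, the Beclin homologue, had 183 and 76.4 CPM under daf-2 RNAi, 171 and 54.5 CPM under cav-1 RNAi, and 209 and 69.3 CPM with the empty vector, with the repeats further apart than the treatments. In conjugation none of 11 genes was called, 7 lay below 0 in log2 fold change, and the median was -0.28, which came to -0.07 without daf-2 RNAi repeat 1 and -0.10 without daf-2 RNAi repeat 2. The most negative was atg-4.2, an ATG8-processing protease, with 16.3 and 8.11 CPM under daf-2 RNAi, 19.3 and 12.4 CPM under cav-1 RNAi, and 23.8 and 12.2 CPM with the empty vector and a log2 fold change of -0.53 (SE 0.26, limma adjusted p = 0.243). sqst-1, the worm p62 cargo receptor, had 91.7 and 139 CPM under daf-2 RNAi, 60.7 and 75 CPM under cav-1 RNAi, and 80.1 and 107 CPM with the empty vector, and its log2 fold change of 0.28 under daf-2 RNAi was not called.

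Several of these calls were lost when 1 library was left out or a setting was changed. A cav-1 RNAi library does not enter the daf-2 RNAi and empty vector means, but it enters the shared estimate of the spread. Without cav-1 RNAi repeat 2 the log2 fold changes of asp-4 and asp-10 stayed at 0.89 and 1.14. Leaving out cav-1 RNAi repeat 1, asp-17 (adjusted p = 0.0619), asp-4 (0.0799) and asp-9 (0.0579) were no longer called by limma. In the fit without cav-1 RNAi repeat 2, asp-10 (adjusted p = 0.0552) and asp-4 (0.248) were no longer called by limma. Without daf-2 RNAi repeat 1, asp-17 (adjusted p = 0.0713), asp-4 (0.322), asp-8 (0.0707) and cpr-4 (0.139) were no longer called by limma. With no daf-2 RNAi repeat 2, asp-10 (adjusted p = 0.116), asp-17 (0.529), asp-8 (0.0588) and asp-9 (0.0629) were no longer called by limma. Omitting empty vector repeat 1, asp-4 (adjusted p = 0.175), asp-8 (0.0616) and cpr-4 (0.152) were no longer called by limma. Dropping empty vector repeat 2, asp-17 (adjusted p = 0.0857) and asp-9 (0.222) were no longer called by limma. epg-2 and asp-18 were called in every fit that left out 1 library, and the number of members called ran from 5, without daf-2 RNAi repeat 2, to 11, without cav-1 RNAi repeat 2. Without the repeat block none of the 71 members was called (the lowest limma adjusted p was 0.389, and 3 members had an unadjusted p under 0.05), and without the filter on low counts only asp-18 and epg-2 were. asp-4 was also lost with median-of-ratios scaling (limma adjusted p = 0.108), the stricter filter (0.115) and a fit with the trend on transcript length removed (0.0599), and asp-17 with total-count scaling (0.0558) and with that trend removed (0.0563). asp-14 passed without daf-2 RNAi repeat 1 (limma adjusted p = 0.0498), empty vector repeat 1 (0.00467) or cav-1 RNAi repeat 2 (0.00131), and atg-2 without cav-1 RNAi repeat 1 (0.028) or repeat 2 (0.0102), with the length trend removed (0.0401), with the stricter filter (0.0363) and with total-count scaling (0.048). lmp-2 was called higher without cav-1 RNAi repeat 2 (limma adjusted p = 0.0483) or empty vector repeat 1 (0.00801), cpr-6 higher without daf-2 RNAi repeat 2 (0.0331), and cpr-1 lower without daf-2 RNAi repeat 1 (0.00868).

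**Figure D3:**
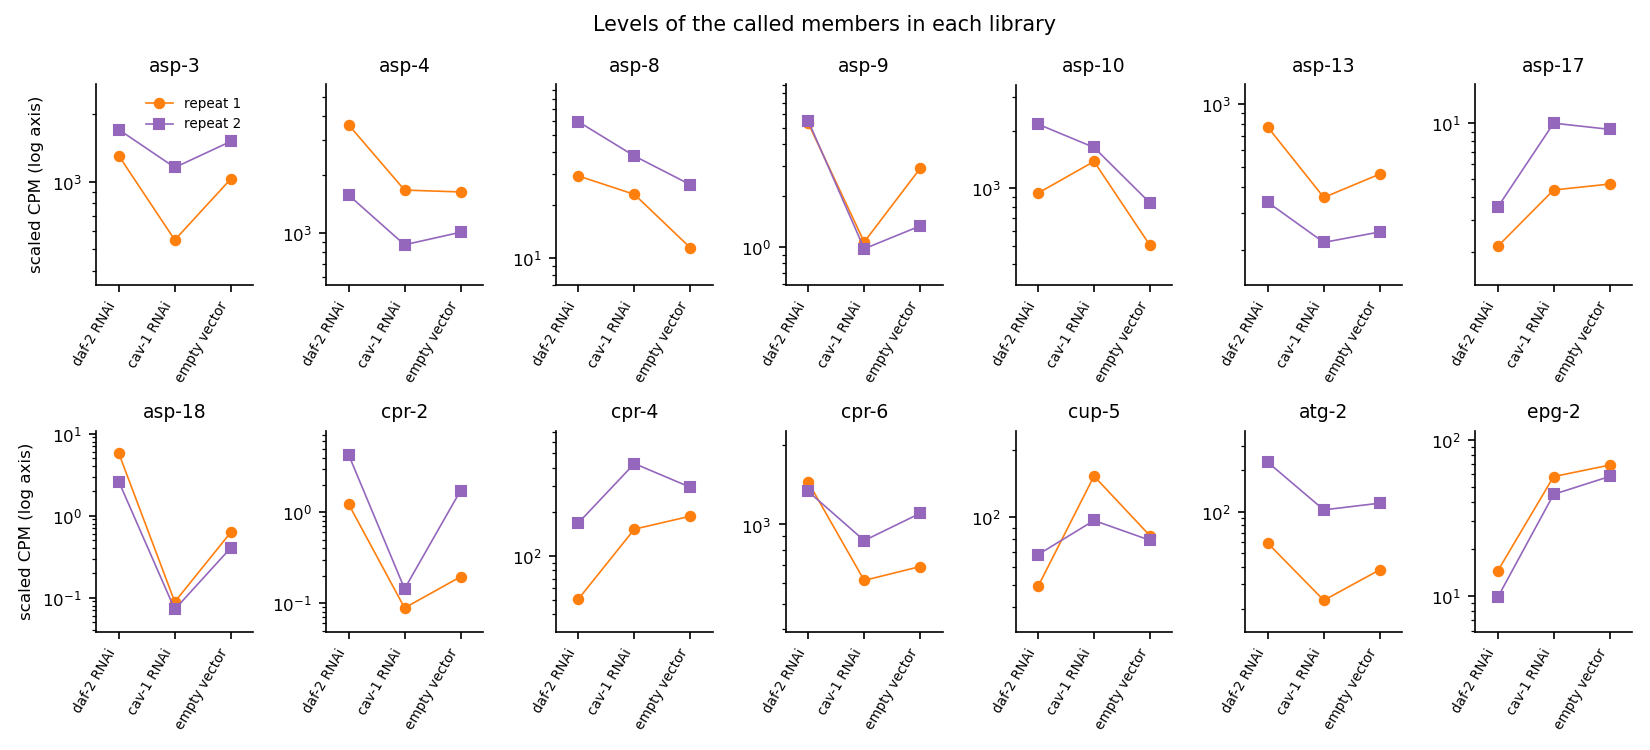
Scaled CPM on log axes for the 14 members called in at least 1 contrast, by group, with circles for repeat 1 and squares for repeat 2 joined within a repeat. epg-2 is lowest and asp-18 highest in both daf-2 RNAi libraries, while for asp-4 and asp-13 the repeats differ by more than several of the groups.

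Under cav-1 RNAi no member passed against empty vector. limma called 0 of 71 members, with 10 at an unadjusted p under 0.05, and 0.00696% of all tested genes, a single gene that was cav-1 itself; limma voom also called 0 members. The authors' deposited table called a single member, asp-10, with 0.57% of all its tested genes called. The median log2 fold change of the members was 0.01, against -0.01 for all tested genes, and ran from -0.09 without cav-1 RNAi repeat 2 to 0.07 with total-count scaling.

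asp-10, whose levels stand above, had the largest positive log2 fold change under cav-1 RNAi, 1.21 (SE 0.26, limma adjusted p = 0.303). asp-14 had the second largest negative one, -1.13 (SE 0.29, limma adjusted p = 0.51). cpr-1, an intestinal cathepsin B homologue, had 447 and 208 CPM under daf-2 RNAi, 87.3 and 191 CPM under cav-1 RNAi, and 267 and 570.3 CPM with the empty vector. Its cav-1 RNAi libraries were the lowest of the 6, and the daf-2 RNAi and empty vector libraries overlapped. The log2 fold change was -1.59 (SE 0.44, limma adjusted p = 0.593). Leaving out cav-1 RNAi repeat 2, atg-13 (adjusted p = 0.0375), atg-16.2 (0.0193) and cpr-1 (4.13e-06) were called by limma. In the fit without daf-2 RNAi repeat 1, asp-10 (adjusted p = 0.00325) and cpr-1 (0.000199) were called by limma. Without daf-2 RNAi repeat 2, asp-10 (adjusted p = 0.00753) and cpr-1 (0.000369) were called by limma. With no empty vector repeat 1, asp-14 (adjusted p = 0.0284) and cpr-1 (2.29e-05) were called by limma. Omitting empty vector repeat 2, asp-10 (adjusted p = 0.0294) was called by limma.

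In their classes, atg-16.2, which directs the conjugation of ATG8 proteins, and atg-13, a partner of the UNC-51 kinase, had the most negative log2 fold changes under cav-1 RNAi against empty vector, and epg-4, the worm EI24 homologue, was the most abundant per kb. atg-16.2 had 121.5 and 47.6 CPM under daf-2 RNAi, 58.3 and 39.6 CPM under cav-1 RNAi, and 137 and 36.4 CPM with the empty vector. Repeat 1 was high under daf-2 RNAi and with the empty vector, and the groups overlapped. atg-13 had 153 and 74.7 CPM under daf-2 RNAi, 87.5 and 77.8 CPM under cav-1 RNAi, and 191 and 67.9 CPM with the empty vector; its cav-1 RNAi library was the lowest in repeat 1 and the highest in repeat 2. epg-4 had 128 and 65.1 CPM under daf-2 RNAi, 186 and 77.4 CPM under cav-1 RNAi, and 169 and 47.9 CPM with the empty vector, with the repeats apart. None of these 3 was called with all 6 libraries.

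All 20 V-ATPase subunit genes were tested, and limma with the settings of the reported fits called none in any contrast. With the stricter filter vha-5 was called higher under daf-2 RNAi than with the empty vector (limma adjusted p = 0.0317). unc-32 and vha-7, both a subunits, were called higher under cav-1 RNAi than under daf-2 RNAi with the stricter filter (limma adjusted p = 0.0427 for unc-32 and 0.0331 for vha-7), with median-of-ratios scaling (0.0413 and 0.0277) and in the authors' deposited table (adjusted p = 0.0221 and 0.0119). Under cav-1 RNAi 18 of 20 lay above 0 in log2 fold change and 17 (85.0%) were higher in both repeats, against 20.8% of all tested genes, while 0 were lower in both, against 24.1%. These 20 genes were read in the same libraries, so their directions are not independent of each other, and the set was not tested. The median was 0.27, against -0.01 for all tested genes, with 0.25 in each repeat. The exceptions were vha-18, an H subunit, with 249 and 74.2 CPM under daf-2 RNAi, 172 and 81.7 CPM under cav-1 RNAi, and 348 and 71.4 CPM with the empty vector, and vha-2, with 308 and 374 CPM under daf-2 RNAi, 288 and 422 CPM under cav-1 RNAi, and 314 and 388 CPM with the empty vector. Over the scalings, filters and left-out libraries tried, between 17 and 20 of the 20 lay above 0 and the median ran from 0.17 to 0.35. Under daf-2 RNAi 14 of 20 lay above 0, 12 (60%) were higher in both repeats, against 32.5% of all tested genes, 3 (15%) were lower in both, against 42.8%, and the median was 0.15. Over the same alternatives that median ran from 0.08 with median-of-ratios scaling to 0.34 without daf-2 RNAi repeat 2, with between 12 and 18 of the 20 above 0.

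vha-4, a proteolipid subunit of V0, had 128 and 127 CPM under daf-2 RNAi, 241 and 132 CPM under cav-1 RNAi, and 128 and 108 CPM with the empty vector. Repeat 1 under cav-1 RNAi was the highest of the 6. Its log2 fold change under cav-1 RNAi was 0.60 (SE 0.25, limma adjusted p = 0.977). vha-8, the V1 subunit E, had 220.2 and 294 CPM under daf-2 RNAi, 299 and 329 CPM under cav-1 RNAi, and 192 and 249 CPM with the empty vector, with both cav-1 RNAi libraries above the other 4. Its log2 fold change under cav-1 RNAi was 0.52 (SE 0.21, limma adjusted p = 0.977). Of the 4 a subunits of V0, vha-5, which acts in the excretory canal and epidermis, had 100.2 and 105 CPM under daf-2 RNAi, 94 and 69.9 CPM under cav-1 RNAi, and 73.1 and 48.2 CPM with the empty vector. Both treatments were above empty vector within each repeat, and daf-2 RNAi gave a log2 fold change of 0.78 (SE 0.24, limma adjusted p = 0.0845). unc-32, the a subunit of neurons, had 119.9 and 165 CPM under daf-2 RNAi, 325 and 179 CPM under cav-1 RNAi, and 164 and 168 CPM with the empty vector, with repeat 1 under cav-1 RNAi above the other 5. vha-6, the a subunit of the intestine, had 153 and 258 CPM under daf-2 RNAi, 143 and 334 CPM under cav-1 RNAi, and 125 and 261 CPM with the empty vector, with the repeats apart and the groups overlapping. vha-9 had 218 and 147 CPM under daf-2 RNAi, 252 and 139.9 CPM under cav-1 RNAi, and 215 and 138 CPM with the empty vector, and vha-11, the V1 subunit C, had 60.7 and 129 CPM under daf-2 RNAi, 54.6 and 141 CPM under cav-1 RNAi, and 44.5 and 110.2 CPM with the empty vector, both with repeats further apart than treatments. With 1 library left out, vha-5 was called under daf-2 RNAi against empty vector without cav-1 RNAi repeat 1 (limma adjusted p = 0.0458) or repeat 2 (0.0132). unc-32 was called in cav-1 RNAi against daf-2 RNAi without cav-1 RNAi repeat 2 (limma adjusted p = 0.003) or either empty vector repeat (0.0442 and 0.0426), and vha-7 without cav-1 RNAi repeat 2 (0.0131).

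**Figure D4:**
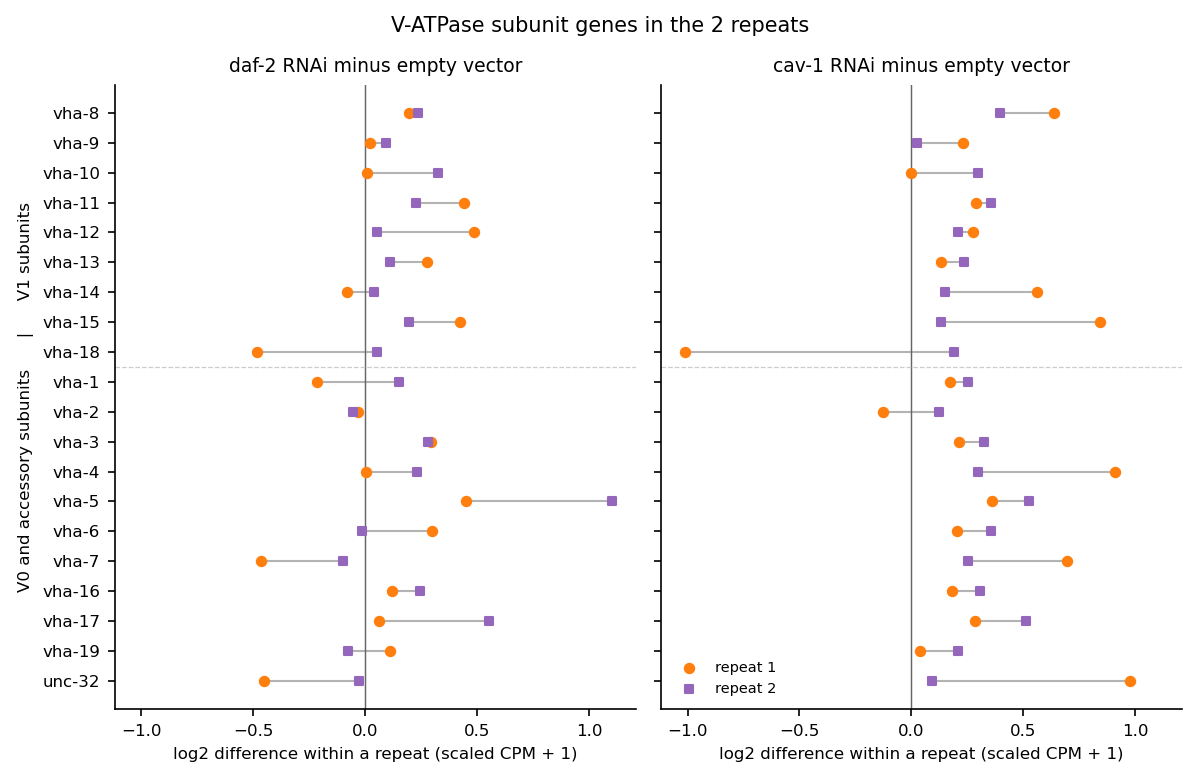
Log2 differences (log2 of scaled CPM + 1) within repeat 1 (circles) and repeat 2 (squares) for the 20 V-ATPase subunit genes, daf-2 RNAi minus empty vector on the left and cav-1 RNAi minus empty vector on the right. On the right 17 genes lie above 0 in both repeats; vha-18, vha-2 and, by less than 0.01, vha-10 are below 0 in repeat 1.

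The treatments were also compared with each other. cav-1 RNAi minus daf-2 RNAi called 12 of 71 members (16.9%), against 10.6% of all tested genes. epg-2, cpr-4, cup-5 and asp-17 were higher under cav-1 RNAi (4 members, against 3.74% of all genes called higher), and 8 were lower (against 6.87%), namely asp-18, asp-9, cpr-2, atg-2, asp-4, cpr-6, asp-3 and asp-13. Of all genes called here 35.3% were higher, and with median-of-ratios scaling 61.5% were. The authors' deposited table called 9 members higher and 10 lower, with 25.9% of all its tested genes called. Within both repeats 24 members (33.8%) were higher under cav-1 RNAi than under daf-2 RNAi, against 39.2% of all tested genes, and 26 (36.6%) were lower, against 39.7%. This contrast shares its daf-2 RNAi libraries with the one above, so the calls that appear in both are not independent.

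Of the 22 tested proteases 2 rose and 7 fell under cav-1 RNAi relative to daf-2 RNAi. asp-18 had 0.0889 and 0.0721 CPM under cav-1 RNAi, against 5.78 and 2.60 CPM under daf-2 RNAi, a log2 fold change of -2.19 (SE 0.23, limma adjusted p = 0.000594). cpr-2 had 0.0889 and 0.144 CPM under cav-1 RNAi, against 1.23 and 4.30 CPM under daf-2 RNAi, and empty vector had 0.195 and 1.73 CPM. The 2 treatments did not overlap, on 3 and 4 counts under cav-1 RNAi, and its log2 fold change was -1.62 (SE 0.27, limma adjusted p = 0.00546). asp-9 had a log2 fold change of -1.67 (SE 0.26, limma adjusted p = 0.00389). cpr-4 was higher under cav-1 RNAi, at 1.45 (SE 0.27, limma adjusted p = 0.00871). asp-3, which like asp-4 acts in necrotic cell death, had 549.7 and 1155 CPM under cav-1 RNAi, against 1303 and 1702 CPM under daf-2 RNAi, the treatments not overlapping, with a log2 fold change of -0.90 (SE 0.24, limma adjusted p = 0.0385). asp-13 had 357 and 218 CPM under cav-1 RNAi, against 773 and 339 CPM under daf-2 RNAi, with groups that overlapped and a fall within each repeat, at -0.87 (SE 0.22, limma adjusted p = 0.0328). cpr-6 had 612 and 868 CPM under cav-1 RNAi, against 1448 and 1336 CPM under daf-2 RNAi, again without overlap, at -0.93 (SE 0.25, limma adjusted p = 0.0386).

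Outside the proteases, epg-2 was higher under cav-1 RNAi by a log2 fold change of 2.01 (SE 0.24, limma adjusted p = 0.00119), with 58.2 and 44.8 CPM under cav-1 RNAi, against 14.4 and 9.77 CPM under daf-2 RNAi. cup-5 was higher by 1.06 (SE 0.28, limma adjusted p = 0.0376), and both of its cav-1 RNAi libraries were the highest of the 6. atg-2 was lower by a log2 fold change of -1.23 (SE 0.24, limma adjusted p = 0.00999), lowest under cav-1 RNAi within each repeat. sqst-1 did not pass, at -0.74 (SE 0.22, limma adjusted p = 0.0567), but was called lower with median-of-ratios scaling (limma adjusted p = 0.0498), the stricter filter (0.029), the length trend removed (0.0291) and in the authors' deposited table (adjusted p = 0.0403). Leaving out cav-1 RNAi repeat 1, asp-13 (adjusted p = 0.166), asp-17 (0.155), asp-18 (0.0704), asp-3 (0.314), asp-4 (0.219), asp-9 (0.117), atg-2 (0.0802), cpr-4 (0.0948), cpr-6 (0.264) and cup-5 (0.195) were no longer called by limma. In the fit without cav-1 RNAi repeat 2, asp-17 (adjusted p = 0.104), asp-3 (0.0863), asp-4 (0.242) and cpr-6 (0.112) were no longer called by limma. Without daf-2 RNAi repeat 1, asp-13 (adjusted p = 0.371), asp-17 (0.0617), asp-3 (0.307), asp-4 (0.204), cpr-4 (0.065), cpr-6 (0.445) and cup-5 (0.477) were no longer called by limma. With no daf-2 RNAi repeat 2, asp-17 (adjusted p = 0.364) and cup-5 (0.053) were no longer called by limma. epg-2 and cpr-2 were called in every fit that left out 1 library, and the number of members called ran from 2, without cav-1 RNAi repeat 1, to 20, without cav-1 RNAi repeat 2. Without the repeat block no member was called (the lowest limma adjusted p was 0.158, and 4 members had an unadjusted p under 0.05), and without the filter on low counts 3 were. asp-3 was also lost with median-of-ratios scaling (limma adjusted p = 0.0585), the length trend removed (0.0531) and the stricter filter (0.0541), cpr-6 with median-of-ratios scaling (0.057) and the length trend removed (0.0583), and cup-5 with the length trend removed (0.0886). The stricter filter left cpr-2 untested.

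Other members, several of them named after their values were seen, were called only in some fits. cpr-1 was lower under cav-1 RNAi than under daf-2 RNAi without either empty vector repeat (limma adjusted p = 0.000363 and 0.000391), cav-1 RNAi repeat 2 (1.84e-05) or daf-2 RNAi repeat 2 (1.61e-07), and with the stricter filter (0.0397). asp-12 was lower in those same fits, with limma adjusted p between 0.00883 and 0.04, and lmp-2 without either empty vector repeat or cav-1 RNAi repeat 2 (0.00317 to 0.0297). Without cav-1 RNAi repeat 2 there were 12 such members in all, among them atg-16.2 and atg-13, both lower, and atg-7 and epg-6, both higher. With median-of-ratios scaling there were 6, among them atg-7, cpr-5 and epg-6, each higher.

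A wider list of 67 genes of lysosomal enzymes, autophagosome formation and fusion, and regulators was read beside the members, with 64 tested. Under daf-2 RNAi 2 rose and 4 fell, against 7.44% of all tested genes (4.31% higher and 3.13% lower), and the median log2 fold change was -0.19, against -0.05 for all tested genes. lipl-4, a lysosomal lipase, had 10.7 and 9.02 CPM under daf-2 RNAi, 1.27 and 1.77 CPM under cav-1 RNAi, and 3.56 and 2.69 CPM with the empty vector, and rose by 1.40 (SE 0.26, limma adjusted p = 0.0107). glo-1, a Rab GTPase of gut granule formation, rose by a log2 fold change of 1.23 (SE 0.28, limma adjusted p = 0.0243). gba-2, a glucocerebrosidase, had 1.13 and 0.514 CPM under daf-2 RNAi, 13.2 and 6.20 CPM under cav-1 RNAi, and 25.6 and 25.1 CPM with the empty vector, and its log2 fold change was -3.88 (SE 0.30, limma adjusted p = 0.000139). sepa-1, which like epg-2 acts in the clearance of germline granules from embryonic cells, had 2.46 and 2.66 CPM under daf-2 RNAi, 13.2 and 20.9 CPM under cav-1 RNAi, and 9.22 and 18.2 CPM with the empty vector, at -1.97 (SE 0.29, limma adjusted p = 0.00352). nuc-1, a lysosomal DNase II, fell with a log2 fold change of -1.35 (SE 0.22, limma adjusted p = 0.00651), and asm-3, an acid sphingomyelinase, with one of -2.08 (SE 0.48, limma adjusted p = 0.0269). Calls of asm-3 were lost without cav-1 RNAi repeat 1 (limma adjusted p = 0.0778), daf-2 RNAi repeat 2 (0.277) or empty vector repeat 2 (0.189), those of nuc-1 without daf-2 RNAi repeat 2 (0.112) or empty vector repeat 2 (0.0551), and those of glo-1 without daf-2 RNAi repeat 1 (0.0745) or empty vector repeat 2 (0.175). Under cav-1 RNAi none of the 64 was called against empty vector. Against daf-2 RNAi, cav-1 RNAi had 4 called higher and 4 called lower, against 3.74% of all tested genes higher and 6.87% lower, among the lower asah-1, an acid ceramidase, at -1.25, and asm-2, an acid sphingomyelinase, at -1.54, and among the higher flcn-1, the folliculin homologue, at 1.11. None of these 8 was called without cav-1 RNAi repeat 1, and asah-1, asm-2, flcn-1 and glo-1 were also lost without daf-2 RNAi repeat 1 and nuc-1 without daf-2 RNAi repeat 2, with limma adjusted p between 0.0522 and 0.548 over these fits. With the length trend removed, asah-1 (limma adjusted p = 0.0601) and flcn-1 (0.0932) were lost there, and asm-3 was lost under daf-2 RNAi against empty vector (0.0558).

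hlh-30, the worm TFEB transcription factor that drives lysosome and autophagy genes, had 51 and 57.3 CPM under daf-2 RNAi, 34.5 and 43.9 CPM under cav-1 RNAi, and 37.5 and 48.3 CPM with the empty vector. The daf-2 RNAi libraries were the highest of the 6, and the log2 fold change of 0.34 (SE 0.23) was not called (limma adjusted p = 0.365).

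Some members differed between the repeats in all 3 groups. Over all tested genes the difference, repeat 2 minus repeat 1, rose with transcript length (Spearman rho 0.545). It did so over the 26 autophagy genes (0.651) and the 20 V-ATPase genes (0.570), but not over the 22 tested proteases (-0.106). Transcript length is 708 nt for lgg-1, 1474 nt for vha-18 and 7291 nt for epg-5, with a median of 1342 nt over all tested genes. The part of length in the values of these members was not tested. lgg-1 was lower in repeat 2 by a log2 difference of -1.54 (SE 0.18, limma adjusted p = 0.000101), with 3 libraries per repeat. epg-5, a tether for the fusion of autophagosomes with late endosomes and lysosomes, had 14.8 and 91.1 CPM under daf-2 RNAi, 14.9 and 103 CPM under cav-1 RNAi, and 13.8 and 76.7 CPM with the empty vector, and all 3 libraries of repeat 2 were above all 3 of repeat 1. vha-18 was lower in repeat 2 by a log2 difference of -1.69 (SE 0.23, limma adjusted p = 0.000202).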

How the data were processed

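RNA of whole CF512 worms was captured as polyadenylated RNA and sequenced from stranded libraries, per the labels' protocols. The authors deposited 1 table with raw read counts per gene and library, their log2 fold changes and adjusted p-values. Per the submitters' processing notes, genome build WBcel235 and DESeq2 1.10.1, Cufflinks 2.2.1, TopHat2 2.0.13, cutadapt 1.7.1 and bcl2fastq 2.15.0.4 were used, with no role stated. The counting tool and its strand mode are not given here. The authors' 6 columns of normalized counts were not used.

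Of 46748 rows, 494 (1.06%) hold no number and were left out. For that reason the columns as deposited were not taken as a count table, and the limma test planned for that case replaced the count-based test. The rows that were kept held whole, non-negative counts in all 6 libraries. Genes with at least 0.348 CPM in 2 libraries and 15 counts in total were tested: 14378 genes with 99.96% of the counts. limma-trend (limma 3.58.1, R 4.3.3) was fitted to log2(TMM-scaled CPM + 1) of all 6 libraries, with the repeat as a block, 2 residual and 8.68 prior degrees of freedom, 2-sided p-values, Benjamini-Hochberg adjustment over all tested genes in each contrast, and a threshold of 0.05. The repeats pair the samples per the series' design text, and deviations of same-numbered libraries from group means correlated at 0.812 to 0.891 for cav-1 RNAi with daf-2 RNAi and daf-2 RNAi with empty vector, and at 0.807 for cav-1 RNAi with empty vector, across 14378 genes. That block was chosen with an earlier account of these data known, in which the fit without it called no gene. Standard errors come from the fit, with n = 2 libraries per group, and counting error is small beside them for genes with many counts. The fit was tested on simulated counts that had the same repeat effect in every group. That test does not cover repeat effects that differ by treatment, or other spreads. The block takes the repeat effect to be the same in every group. On the first principal component of the tested genes (65.9% of the variance), the daf-2 RNAi repeats lay at -67.6 and 34.7. Those of cav-1 RNAi lay at -27.7 and 59.6, and those of the empty vector at -60.7 and 61.8. The distance between repeats was thus unequal, and smallest for cav-1 RNAi. How far single members depart from the block was not tested. Levels per kb used Ensembl release 115 exon lengths, and coordinates are from that annotation of WBcel235.

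The members and lists were chosen with earlier results of these data known. Named are all members and listed genes called in any contrast, the highest and most changed member of each class, the genes listed singly in the choice of members, hlh-30, and the targeted genes. Marker lists for coelomocytes, the excretory canal, hypodermis and the germline were also read: none of their genes was called under cav-1 RNAi against empty vector, and under daf-2 RNAi 1 hypodermal gene rose and no other was called.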

Additional observations from a re-analysis of the deposited data

How the results depend on the processing

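The fits reported called 8, 0 and 12 members, 1070, 1 and 1526 genes, and 6, 0 and 8 genes of the wider list, for daf-2 RNAi against empty vector, cav-1 RNAi against empty vector and cav-1 RNAi against daf-2 RNAi in that order. The repeat numbers pair the samples, and without the replicate block no gene, no member and no gene of the wider list was called in any contrast (0 in each). Without the filter on low counts the calls were 2 members for daf-2 RNAi against empty vector, 187 genes for daf-2 RNAi against empty vector, 2 genes of the wider list for daf-2 RNAi against empty vector, 3 members for cav-1 RNAi against daf-2 RNAi, 342 genes for cav-1 RNAi against daf-2 RNAi and 4 genes of the wider list for cav-1 RNAi against daf-2 RNAi. With median-of-ratios size factors the calls were 6 genes for cav-1 RNAi against empty vector, 3093 genes for cav-1 RNAi against daf-2 RNAi and 16 genes of the wider list for cav-1 RNAi against daf-2 RNAi. With the stricter filter of 50 counts the calls were 26 genes for cav-1 RNAi against empty vector, 2589 genes for cav-1 RNAi against daf-2 RNAi and 15 genes of the wider list for cav-1 RNAi against daf-2 RNAi. With limma voom the calls were 2 genes for cav-1 RNAi against empty vector. With a pseudocount of 0.5 the calls were 2 genes for cav-1 RNAi against empty vector. Leaving out 1 library at a time, the members called ran from 2 to 20 for cav-1 RNAi against daf-2 RNAi, 0 to 3 for cav-1 RNAi against empty vector and 5 to 11 for daf-2 RNAi against empty vector. Leaving out 1 library at a time, the genes called ran from 68 to 4234 for cav-1 RNAi against daf-2 RNAi, 0 to 398 for cav-1 RNAi against empty vector and 665 to 2214 for daf-2 RNAi against empty vector. Leaving out 1 library at a time, the genes of the wider list called ran from 0 to 22 for cav-1 RNAi against daf-2 RNAi, 0 to 4 for cav-1 RNAi against empty vector and 4 to 13 for daf-2 RNAi against empty vector. All changes of sign among the named genes were in values not called in the fits reported. With total-count scaling the log2 fold change changed sign for bec-1 (0.0623), cpz-1 (0.0282), unc-51 (0.0853) and vha-2 (0.0485) for daf-2 RNAi against empty vector and lmp-2 (0.0315), vha-2 (0.0746) and nuc-1 (0.0511) for cav-1 RNAi against empty vector. With limma voom the log2 fold change changed sign for epg-4 (-0.0089) for daf-2 RNAi against empty vector and vha-2 (0.0003) for cav-1 RNAi against empty vector. With median-of-ratios size factors the log2 fold change changed sign for epg-4 (-0.0603) and vha-9 (-0.02) for daf-2 RNAi against empty vector, vha-2 (0.0128) for cav-1 RNAi against empty vector and vha-11 (0.0807) for cav-1 RNAi against daf-2 RNAi. With the length trend removed in the replicate block fit the log2 fold change changed sign for unc-51 (0.13) and vha-9 (-0.11) for daf-2 RNAi against empty vector and lmp-2 (0.0018), vha-2 (0.0417) and glo-1 (0.0014) for cav-1 RNAi against empty vector. With the stricter filter the log2 fold change changed sign for unc-51 (0.0213) for daf-2 RNAi against empty vector and vha-2 (0.0076) for cav-1 RNAi against empty vector. For daf-2 RNAi against empty vector, leaving out 1 library at a time gave log2 fold changes of -0.45 to 1.13 for asah-1, -0.53 to 0.35 for atg-13, -0.37 to 0.58 for atg-16.2, -0.10 to 0.17 for bec-1, -1.44 to 0.96 for cpr-1, -0.45 to 0.55 for cpz-1, -0.33 to 0.37 for epg-4, -0.071 to 0.62 for lmp-1, -0.46 to 0.21 for unc-32, -0.14 to 0.36 for unc-51 and -0.10 to 0.24 for vha-2. For cav-1 RNAi against empty vector, leaving out 1 library at a time gave log2 fold changes of -1.88 to 0.32 for asm-3, -0.23 to 0.21 for asp-17, -0.28 to 0.10 for asp-4, -1.08 to 0.10 for atg-13, -1.16 to 0.0026 for atg-16.2, -0.36 to 0.0489 for atg-4.2, -0.54 to 0.0304 for cpl-1, -0.35 to 0.59 for cpr-4, -0.23 to 0.85 for daf-2, -0.38 to 0.19 for glo-1, -0.64 to 0.54 for lmp-2, -0.18 to 0.14 for nuc-1 and -0.21 to 0.15 for vha-2. For cav-1 RNAi against daf-2 RNAi, leaving out 1 library at a time gave log2 fold changes of -0.30 to 0.36 for asp-10, -0.99 to 0.16 for atg-13, -0.83 to 0.16 for cpz-1, -0.33 to 0.11 for vha-11, -0.23 to 0.16 for vha-2 and -0.0655 to 0.12 for vha-9. Where a setting removed genes or samples, fewer genes or libraries were tested by construction; otherwise the cause was not tested. With 2 libraries per group the spread is estimated mostly across genes, and members under about 1 CPM rest on few counts.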
